A study of Mus musculus with 12 samples.

Results

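The Fos and Jun families code for the subunits of AP-1, a dimeric transcription factor, and 6 of their genes (Fos, Fosb, Fosl2, Jun, Junb and Jund) were followed in mouse prefrontal cortex. They were taken by gene name from a table of 28842 genes, and all 6 had a row of their own. Expression was measured by RNA sequencing of 12 libraries from male C57BL/6J mice, a common inbred strain, with a genotype given as WT. Cocaine mice had received 15 mg/kg cocaine in adolescence, from postnatal day 28 to day 42, and saline mice had received saline over the same days (6 libraries each). All animals, saline mice included, then had a pre-test at day 75 and 1 mg/kg cocaine before training in conditioned place preference on days 76 and 77, so no group was free of the drug. In that procedure an animal learns to link a compartment with a drug, and the time spent there is read out. The test was on day 78, and cortex was dissected 30 to 60 min after it. The series title asks how adolescent cocaine shapes the adult response to the drug through DUSP1, a phosphatase, and the groups differ by adolescent exposure alone. Nothing in the labels ties a library to 1 mouse, so the p-values measure spread between libraries, which may be technical.

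AP-1 proteins carry a basic region that contacts DNA and a leucine zipper that joins the partners. Fos proteins need a Jun partner to bind DNA stably, whereas Jun proteins can also pair with each other, and the dimers bind the sequence TGANTCA and, with CREB-related partners, cyclic AMP response elements. In neurons Fos, Fosb and Junb are immediate-early genes, transcribed within minutes of synaptic activity and silenced again soon after, while Jund is known to depend less on stimulation. Fosb also gives a truncated splice form, ΔFosB, a long-lived protein known to accumulate in reward regions after repeated cocaine. Counts here are per gene, so the splice forms of Fosb are summed.

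Promoter sequence is shown for Fos, Junb, Jun and Fosb, the 4 members whose mean was higher in cocaine libraries. Each line gives the 150 bases that end just before the RefSeq start site (GRCm38.p6), written on the strand of the gene, with matches to TGACG (the core of the cyclic AMP response element), TATAAA or CCAAT on either strand in capitals.
Fos, chr12:85473740-85473889, plus strand: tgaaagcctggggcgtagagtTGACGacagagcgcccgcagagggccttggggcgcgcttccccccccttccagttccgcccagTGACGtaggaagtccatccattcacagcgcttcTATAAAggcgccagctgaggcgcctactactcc
Junb, chr8:84978749-84978898, minus strand: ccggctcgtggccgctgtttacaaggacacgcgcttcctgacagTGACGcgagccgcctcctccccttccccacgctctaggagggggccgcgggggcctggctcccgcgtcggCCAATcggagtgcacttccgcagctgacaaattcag
Jun, chr4:95052223-95052372, minus strand: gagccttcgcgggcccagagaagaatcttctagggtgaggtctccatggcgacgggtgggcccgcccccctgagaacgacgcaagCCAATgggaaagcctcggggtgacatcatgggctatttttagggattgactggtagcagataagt
Fosb, chr7:19310046-19310195, minus strand: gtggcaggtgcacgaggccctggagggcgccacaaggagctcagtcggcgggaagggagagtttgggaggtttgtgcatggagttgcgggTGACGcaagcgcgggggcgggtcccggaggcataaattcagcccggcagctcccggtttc

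The letters searched were chosen after these sequences had been read. In the full windows of 250 bases before to 50 after the start, TGACG stood at positions -129 and -66 of Fos, at -106 of Junb and at -60 of Fosb, counted from the start site. It was not found in the windows of Jun, Fosl2 and Jund, and 20.8 percent of all 32851 mouse promoter windows hold it. TATAAA stood at -33 of Fos and just after the RefSeq start of Junb (13.6 percent of all windows), and CCAAT at -36 of Junb and -65 of Jun (37.4 percent). The AP-1 sequence TGANTCA was found in no window of the 6 members, against 7.81 percent of all windows. Only exact matches were counted, so near matches, such as tgacatca in the line of Jun, were not. The RefSeq starts of Fosl2 and Jund lie 671 and 1210 bases from the starts in the deposited table, so those windows do not adjoin the deposited starts. The RefSeq start of Junb lies 30 bases upstream of its deposited start, so its TATAAA lies upstream of the deposited start. That of Fosb lies 6 bases downstream of its deposited start. All positions given here are counted from the RefSeq starts.

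Depth per library ran from 16.7 to 19.9 M reads, and the lowest member count in any library was 427 reads, which carries a counting error of 4.84 percent. The labels also name a mesenchymal stem cell line (C3H 10T1/2) and a human genome build, and they tag libraries with odd replicate numbers as day 0 and those with even numbers as day 5. Slc17a7, the vesicular glutamate transporter of cortical excitatory neurons, had 35345 ± 4115 normalised reads in cocaine and 34681 ± 4040 in saline libraries (SD, n = 6 each). Of 6 mesenchymal markers 0 reached a mean FPKM of 1. Striatal projection neuron markers summed to 2383 to 3682 normalised reads in cocaine and 2320 to 3623 in saline libraries. Among them Drd2 ran from 31.3 to 124 in cocaine and from 27.5 to 171 in saline libraries, and Adora2a from 31.3 to 200 and from 38.4 to 214. Whether dissection differed between libraries was not tested. Choroid plexus markers summed to 33.8 to 121 normalised reads in cocaine libraries and 65.5 to 11501 in saline libraries, where the highest value was that of saline replicate 5.

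Ranked per length, Junb and Jund supplied most of the transcript of the 6 genes. Levels are fragments per kilobase of gene and M of reads (FPKM), and in bulk tissue fewer cells of a type and less RNA per cell cannot be told apart. Junb averaged 73.5 ± 17.1 FPKM in cocaine and 53.8 ± 10.7 FPKM in saline libraries, and Jund 61.0 ± 14.9 FPKM in cocaine and 61.2 ± 13.05 FPKM in saline libraries (SD, n = 6 each). Jun, the founding member of the family, stood at 21.3 ± 1.32 FPKM in cocaine and 18.6 ± 1.42 FPKM in saline libraries, next to Fos at 20.9 ± 4.33 and 15.9 ± 3.23 FPKM. Fosb averaged 5.05 ± 0.480 FPKM in cocaine and 4.60 ± 0.598 FPKM in saline libraries, and Fosl2, which codes for Fra-2, was lowest at 3.93 ± 0.639 and 3.98 ± 0.499 FPKM. Across all libraries the tiers did not overlap: Junb and Jund lay at 42.1 FPKM or above, Jun and Fos between 11.3 and 27.2 FPKM, and Fosb and Fosl2 at 5.61 FPKM or below. Within each tier the ranges of the neighbours overlapped. Jund shares 877 of its 1668 exon bases with an antisense transcript, and how reads there were counted is not given. Its level per length, and its order against Junb, are therefore uncertain. The Fos family made up 16.2 ± 1.07 percent of the summed FPKM of the 6 genes in cocaine and 15.7 ± 1.76 percent in saline libraries (SD, n = 6 each).

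**Figure D1:**
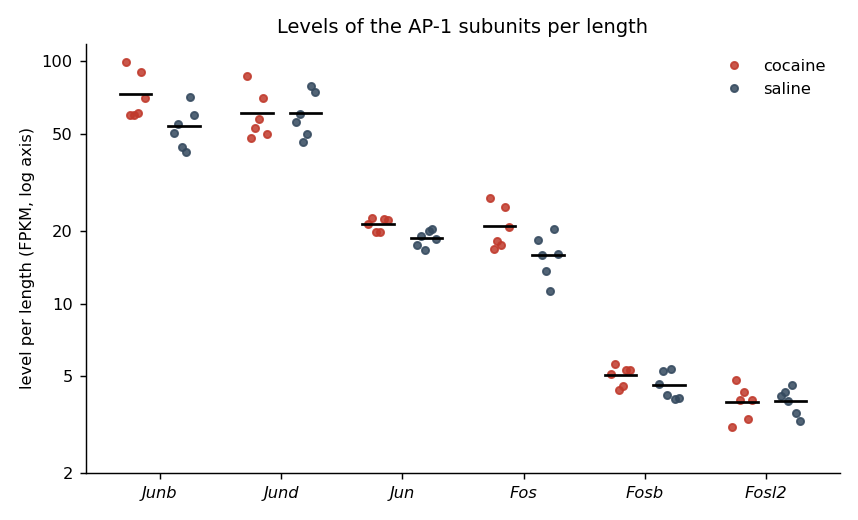
Level per length (FPKM, log axis) of each AP-1 subunit in every library, 6 cocaine (red, left) and 6 saline (dark, right), with a line at each group mean. Junb and Jund form the upper tier at 42.1 FPKM or above, Jun and Fos the middle one, and Fosb and Fosl2 the lower one.

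Junb, Fos and Jun were higher on average in cocaine than in saline libraries, the interval of Fosb held 0, and Fosl2 and Jund were close to equal. No member passed the adjusted threshold. In a limma model on log2(normalised reads + 1) over the 13016 genes averaging 1 FPKM or more, which all 6 members did, 0 genes passed an adjusted p of 0.05 in either direction (0.0 percent), and each member had an adjusted p of 1.00. At an unadjusted p under 0.05 edgeR called 253 of 16057 genes (1.58 percent, with 0.741 percent higher) and DESeq2 428 of 28827 (1.48 percent, with 0.624 percent higher), and after adjustment they called 0 and 3 (0.0104 percent). The authors' deposited table likewise gives an adjusted p of 1.00 for every member. At an unadjusted limma p under 0.05 stood 3 of the 6 members, all higher in cocaine libraries, and 0.676 percent of all genes tested were higher and 0.469 percent lower at that level. Differences over the 6 members had a median of 0.17 (log2), with 4 above 0, beside a median of 0.01 over all genes tested, of which 53.7 percent were above 0.

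Junb, an activity-induced Jun protein that activates transcription less strongly than Jun, showed the largest difference of the 6. Its normalised read count had a lowest, median and highest value of 2399, 2700 and 3989 in cocaine libraries, against 1764, 2133 and 2807 in saline libraries. All but 1 of the saline libraries lay below the lowest cocaine library, and the exception was saline replicate 5, which lay above 3 cocaine libraries. The means were 2971 ± 669 in cocaine and 2174 ± 381 in saline libraries (SD, n = 6 each), a log2 difference of 0.44 ± 0.15 (SE; 95% interval 0.13 to 0.75) and 1.37-fold between means. An exact two-sided permutation test gave p = 0.0216, where the smallest value that 6 libraries against 6 can give is 0.00216. The deposited table places Junb (ENSMUSG00000052837) at 84974484 to 84978718 of chromosome 8, minus strand, in coordinates that match GRCm38. Of its 2301 exon bases 173 are shared with Prdx2, a peroxidase gene on the opposite strand, which had 3933 ± 581 normalised reads in cocaine and 3850 ± 545 in saline libraries. The strand setting of the counting is not given in the sources used here, so reads in bases shared by opposite genes cannot be assigned to either.

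Fos, the classical marker of recently active neurons, followed Junb. It had 712, 803 and 1121 normalised reads in the lowest, median and highest cocaine library, against 483, 652 and 823 in saline libraries. The groups overlapped: 3 cocaine libraries lay above all saline libraries and 4 saline libraries below all cocaine libraries. Means were 862 ± 172 in cocaine and 657 ± 119 in saline libraries (SD, n = 6 each), a log2 difference of 0.39 ± 0.14 (SE; 95% interval 0.08 to 0.70; exact permutation p = 0.0346). Fos (ENSMUSG00000021250; chromosome 12, 85473890 to 85477273, plus strand) stands alone, and its 2352 exon bases are shared with no other annotated gene.

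Jun, whose protein is phosphorylated by the JNK kinases, differed by less but varied least. Its lowest, median and highest normalised read counts were 1088, 1210 and 1319 in cocaine libraries, against 960, 1042 and 1156 in saline libraries. In cocaine libraries 4 values lay above every saline value, and in saline libraries 4 lay below every cocaine value. The means were 1197 ± 90.9 and 1047 ± 81.1 in cocaine and saline libraries (SD, n = 6 each), which is a log2 difference of 0.19 ± 0.08 (SE; 95% interval 0.03 to 0.36; exact permutation p = 0.0173). The coefficient of variation of Jun was 7.60 percent in cocaine and 7.74 percent in saline libraries, whereas those of the other members ran from 11.0 to 23.6 percent. Jun (ENSMUSG00000052684; chromosome 4, 95049034 to 95052222, minus strand) shares 232 of its 3189 exon bases with Junos, an antisense transcript that had 14.9 ± 4.25 normalised reads in cocaine and 16.2 ± 6.66 in saline libraries.

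**Figure D2:**
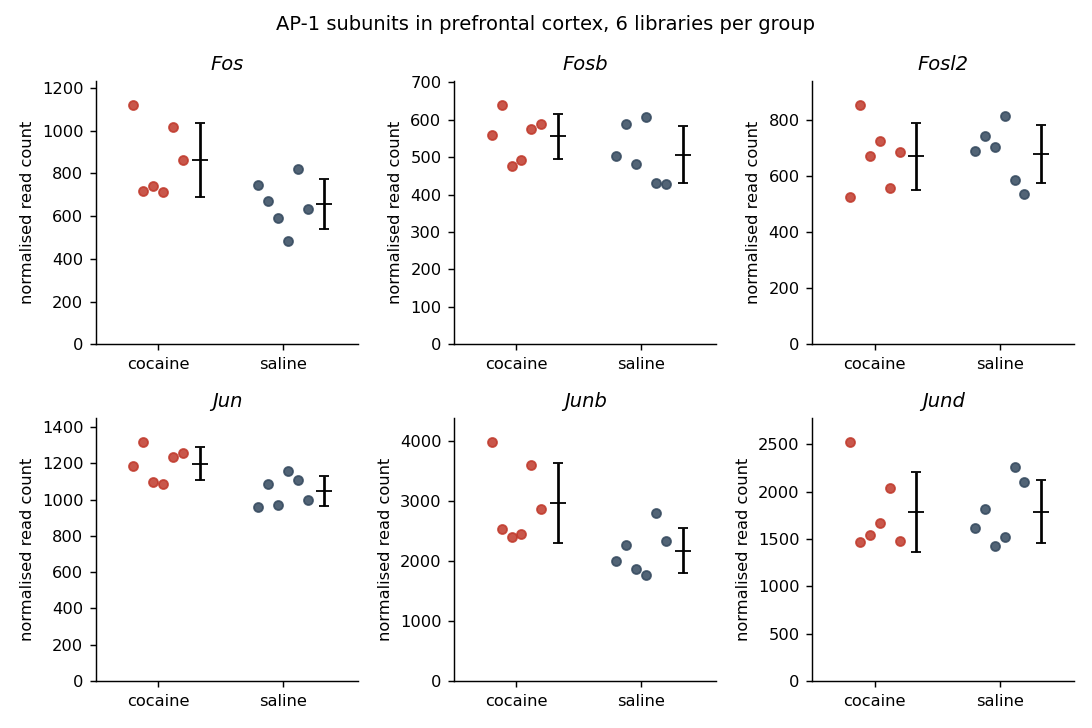
Normalised read count of each AP-1 subunit in every library, cocaine left and saline right, with the mean and SD beside the points (n = 6 per group). For Junb, Fos and Jun the cocaine points sit higher with some overlap, and for Fosl2 and Jund the groups cover the same range.

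Fosb, the source of FosB and ΔFosB, had 477, 567 and 640 normalised reads in the lowest, median and highest cocaine library, against 428, 492 and 607 in saline libraries. Of the cocaine libraries 1 exceeded all saline libraries, and the difference of 0.14 ± 0.11 (log2, SE) had a 95% interval of -0.09 to 0.37, or 0.937 to 1.30 as a ratio (exact permutation p = 0.225). The gene (ENSMUSG00000003545) spans 19302696 to 19310051 of chromosome 7, minus strand. Fosl2 (ENSMUSG00000029135; chromosome 5, 32135801 to 32157842, plus strand) had 525, 680 and 855 normalised reads in cocaine libraries, against 538, 699 and 815 in saline libraries. Its difference was -0.02 ± 0.13 (log2, SE; 95% interval -0.30 to 0.25; exact permutation p = 0.844). Jund (ENSMUSG00000071076; chromosome 8, 70698949 to 70700616, plus strand), whose protein can restrain cell growth, had 1468, 1604 and 2527 normalised reads in cocaine libraries, against 1424, 1714 and 2256 in saline libraries. Its difference was -0.01 ± 0.15 (log2, SE; 95% interval -0.33 to 0.31; exact permutation p = 0.952), and 877 of its 1668 exon bases are shared with Gm11175, an antisense transcript. The intervals of Fosb, Fosl2 and Jund still hold differences as large as that of Jun.

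Within the libraries tagged day 0 (3 per group) Junb differed by 0.57 and Fos by 0.41, and within those tagged day 5 by 0.31 and 0.37 (log2). Jun differed by 0.21 and 0.17, and Fosb by 0.18 and 0.09. Fosl2 and Jund had opposite signs in the tags: -0.18 and 0.13 for Fosl2 and 0.20 and -0.23 for Jund. The effect did not differ detectably between the tags in any member (interaction term in limma, adjusted p from 0.966 to 0.990). Without saline replicate 5, the library with choroid plexus transcripts, Junb differed by 0.52 and Fos by 0.46.

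The members varied together between libraries of the same group, in a pattern that did not follow the families. Log2 deviations from the group mean were correlated over the 12 libraries for all 15 pairs, with permutation p-values adjusted over the pairs. Fos and Junb moved together (Pearson r = 0.90, adjusted permutation p = 0.000825; Spearman rho = 0.92, adjusted p = 0.00105), and so did Junb and Jund (r = 0.91, adjusted permutation p = 0.000825; rho = 0.75, adjusted p = 0.0391). Without the 2 libraries farthest from the median of the first gene, r was 0.86 for Fos and Junb (adjusted permutation p = 0.0282) and 0.81 for Junb and Jund (adjusted p = 0.0460). Within the 6 cocaine and the 6 saline libraries r was 0.99 and 0.79 for Fos and Junb, and 0.89 and 0.95 for Junb and Jund. Fosl2 ran against Fos, Junb and Jund (r = -0.75, -0.81 and -0.84; adjusted permutation p = 0.0142, 0.00712 and 0.00460; rho = -0.71, -0.71 and -0.72, each with adjusted p = 0.0391). Over the 10 libraries left without the 2 farthest, r was -0.61, -0.77 and -0.74 (adjusted permutation p = 0.156, 0.0537 and 0.0643). Fos and Jund (r = 0.76, adjusted permutation p = 0.0142; rho = 0.67, adjusted p = 0.0477) and Fosb and Jun (r = 0.68, adjusted permutation p = 0.0406; rho = 0.59, adjusted p = 0.0911) had r = 0.66 and 0.58 without 2 libraries (adjusted permutation p = 0.129 and 0.173). The remaining 8 pairs did not pass. How many pairs of other genes pass in this way was not counted, so the pattern is not shown to be particular to AP-1.

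That pattern ran along the length of the genes. A long-minus-short score was computed for each library as the median log2 deviation of the longest 3253 tested genes (6524 bases or more) minus that of the shortest 3254 (2378 bases or fewer), with the members left out; the score was chosen after the data had been seen. It had a lowest, median and highest value of -0.38, 0.01 and 0.33 in cocaine libraries and -0.42, 0.06 and 0.39 in saline libraries, and its group means of -0.03 ± 0.27 and 0.02 ± 0.32 differed by less than their spread (SD, n = 6 each; exact permutation p = 0.803). Jund, Junb and Fos, with 1668, 2301 and 2352 bases, lie in the short set, Fosl2 with 9680 bases in the long one, and Jun (3189) and Fosb (6243) between.

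**Figure D3:**
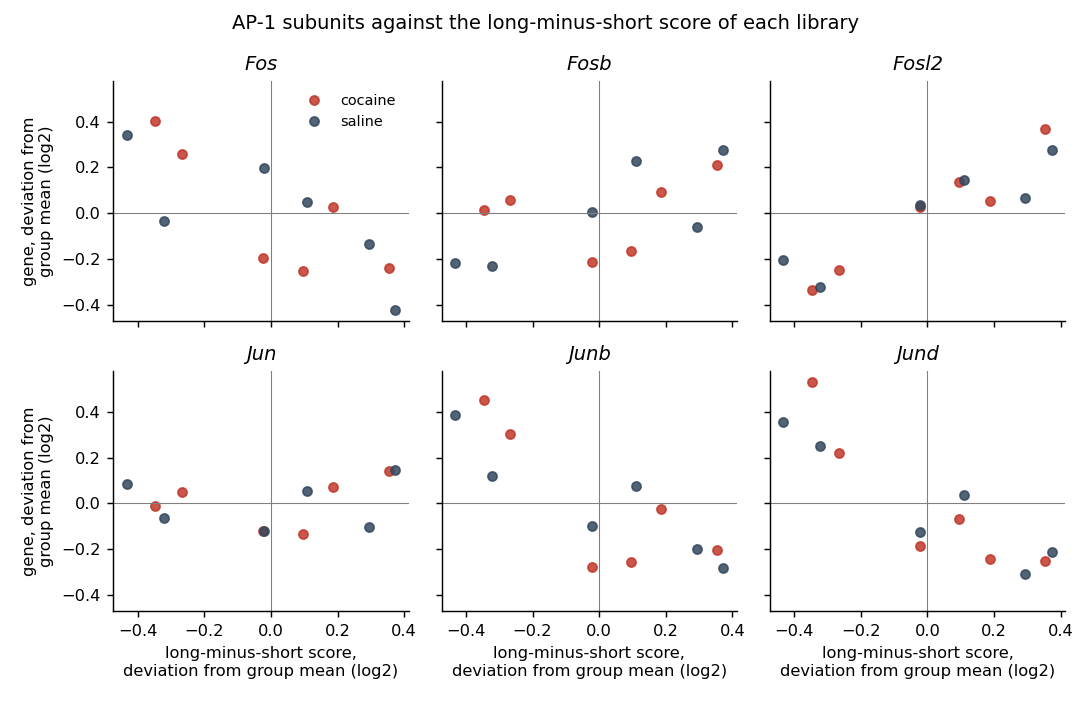
Deviation of each AP-1 subunit from its group mean (log2) against the deviation of the long-minus-short score (log2) for 12 libraries, 6 cocaine (red) and 6 saline (dark). Fosl2 climbs with the score (r = 0.93), Jund, Junb and Fos descend with it (r = -0.90, -0.83 and -0.79), and Jun is nearly flat (r = 0.19).

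Within groups Jund fell along this score with r = -0.90 (rho = -0.87; permutation p = 0.000100 and 0.000490, adjusted over the 6 relations p = 0.000300 and 0.00147), Junb with r = -0.83 (rho = -0.73; adjusted permutation p = 0.00236 and 0.0141) and Fos with r = -0.79 (rho = -0.73; adjusted permutation p = 0.00475 and 0.0141). Fosl2 followed it upward with r = 0.93 (rho = 0.90; adjusted permutation p = 0.000300 and 0.00120). Fosb had r = 0.59 (rho = 0.67; adjusted permutation p = 0.0546 and 0.0238) and Jun r = 0.19 (rho = 0.29; adjusted permutation p = 0.551 and 0.355). Without the 2 libraries farthest from the median score, r was -0.86 for Jund, -0.70 for Junb, -0.64 for Fos, 0.92 for Fosl2, 0.58 for Fosb and 0.42 for Jun. The score sets long against short genes, so short genes falling and long genes rising along it is largely built in. How many other genes of such lengths have an r of this size was not counted, so these r are no result particular to AP-1. Why libraries differ along the score was not tested.

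With the score as a covariate the errors of every member shrank, and the estimates of Junb, Fos, Jun and Fosb stayed close to those without it. Junb differed by 0.41 ± 0.08 (log2, SE), Fos by 0.36 ± 0.09 and Jun by 0.20 ± 0.07, and Fosb by 0.16 ± 0.09. Fosl2 stood at 0.01 ± 0.06 and Jund at -0.05 ± 0.07, against -0.02 and -0.01 without the score. The 95% intervals of Fosl2 and Jund narrowed to -0.13 to 0.14 and -0.20 to 0.105. Still no gene passed after adjustment: 0 of 13016 did, the adjusted limma p of Junb was 0.890, and 2.33 percent of all genes were higher at an unadjusted p under 0.05, a level that the same 3 members reached.

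**Figure D4:**
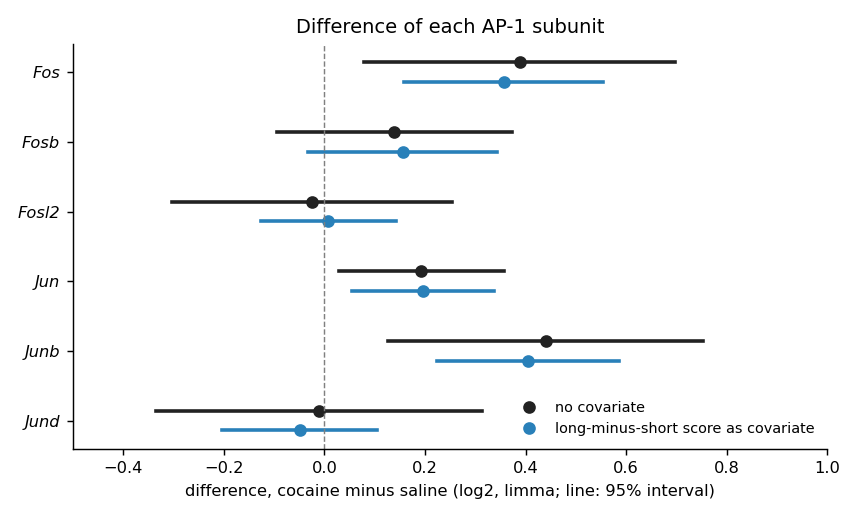
Difference of each AP-1 subunit between cocaine and saline libraries (log2, cocaine minus saline, limma; lines are 95% intervals), without a covariate (black) and with the long-minus-short score as a covariate (blue). Junb stays near 0.4 with a narrower interval, and Fosl2 and Jund stay near 0.

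Since Junb and Jund are short genes that varied together, their ratio per length was taken within each library, a choice made after the values were seen and given without a test. Junb over Jund had a lowest, median and highest value of 1.06, 1.20 and 1.41 in cocaine libraries, against 0.806, 0.901 and 0.951 in saline libraries. Every cocaine library had more Junb than Jund per length and every saline library less, with means of 1.21 ± 0.125 and 0.884 ± 0.0518 (SD, n = 6 each). Jund shares 877 of its 1668 exon bases with Gm11175, and how reads there were counted is not given. Which gene is the higher within a library is therefore uncertain. The comparison between groups uses the same lengths in every library. Among the other 13015 tested genes set against Jund in this way, 3 did not overlap and were higher in cocaine libraries (0.0231 percent): Junb, Arc, a cytoskeletal protein of active synapses, and Mad2l1bp. On the normalised reads themselves 0 members were free of overlap, against 0.0615 percent of all genes that were so and higher and 0.0154 percent lower in cocaine libraries. Fos over Jund was 0.302, 0.344 and 0.415 in the lowest, median and highest cocaine library, against 0.214, 0.260 and 0.326 in saline libraries, with overlap. Junb over Fos ran from 3.31 to 3.64 in cocaine and from 2.75 to 3.77 in saline libraries, with means of 3.51 ± 0.135 and 3.40 ± 0.374 (SD, n = 6 each). As a share of the summed FPKM of the 6 genes, Junb took 37.1 to 41.6 percent in cocaine and 31.6 to 35.9 percent in saline libraries, and Jund 29.0 to 35.7 percent in cocaine and 36.0 to 42.2 percent in saline libraries. These shares restate the same levels and are no further result. The share of Jund was lower in cocaine libraries although its mean level was 61.0 FPKM there and 61.2 FPKM in saline libraries.

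**Figure D5:**
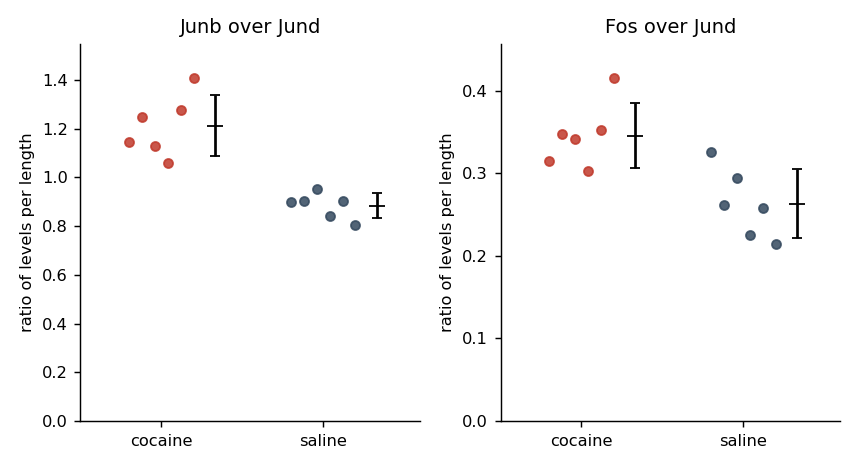
Ratio of the levels per length of Junb over Jund (left) and Fos over Jund (right) in every library, cocaine left and saline right in each panel, with mean and SD (n = 6 per group). All cocaine libraries lie above all saline libraries for Junb over Jund (lowest cocaine 1.06, highest saline 0.951), and the groups overlap for Fos over Jund.

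The genes most like each member over the 12 libraries, by Pearson r of deviations from the group mean among tested genes, are given as a description. Members, mitochondrial genes, pseudogenes and genes with only a predicted or clone name took no place. Fos was most like Ier2, a serum-induced immediate-early gene (r = 0.96), and Gadd45a, a stress and growth-arrest gene (r = 0.95), with 1522 and 1764 bases. Their normalised reads were 326 ± 110 in cocaine and 232 ± 59.7 in saline libraries for Ier2, and 176 ± 44.1 and 145 ± 33.2 for Gadd45a (SD, n = 6 each). Junb was most like Arl8a, a GTPase of lysosome transport (r = 0.98), and Nab2, a corepressor that binds Egr proteins (r = 0.98). Jund was most like Plekhj1 (r = 0.98) and Cdkn2d, an inhibitor of cyclin-dependent kinases (r = 0.98), and these 4 have lengths of 1574 to 2941 bases. Fosl2 was most like Synm, an intermediate filament protein (r = 0.98), and Chd1, a chromatin remodeller (r = 0.98), with 7933 and 8721 bases. Fosb was most like Tmem150c (r = 0.95) and Mgat1, a glycosyltransferase (r = 0.92), and Jun like Celf6, an RNA-binding protein (r = 0.93), and Sesn2, a stress-response protein (r = 0.87).

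Genes around AP-1 showed no call in any of 5 lists, as 0 of all 13016 genes tested passed after adjustment. Other dimer partners of Fos and Jun had 16 members, of which 11 were tested. Of these 4 were higher and 7 lower, with a median of -0.0047 (log2). At an unadjusted limma p under 0.05 stood 0 of them, where 0.676 percent of all genes tested were higher and 0.469 percent lower. The smallest p-values there were those of Atf7 (-0.15 ± 0.13, log2, SE) and Nfe2l2, the antioxidant response factor (-0.17 ± 0.17). Kinases and factors that induce Fos and Jun were all tested, 13 of 29 higher and 16 lower (median -0.01). Crebbp, the coactivator that CREB recruits, had 1258 ± 140 normalised reads in cocaine and 1368 ± 123 in saline libraries, and Crtc2, another CREB coactivator, 364 ± 25.4 and 401 ± 52.7 (SD, n = 6 each). Regulators of AP-1 protein and mRNA turnover were split, 6 of 12 higher (median -0.0028), and Det1, a partner of the COP1 ubiquitin ligase that targets Jun, had a difference of 0.21 ± 0.14 (log2, SE). Genes known as AP-1 targets had 22 members, of which 18 were tested, 8 higher and 10 lower (median -0.02), with the NF-kappa B subunit Nfkb1 at -0.10 ± 0.09 and Vim, the intermediate filament vimentin, at -0.17 ± 0.23.

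Other rapid immediate-early genes had a mostly positive direction. Of 25 tested members 23 were higher and 2 lower, with a median of 0.28 (log2), and 8 were higher at an unadjusted limma p under 0.05, where 0.676 percent of all genes were; 0 passed after adjustment. The list was chosen with earlier results of these data known, so its direction is no independent evidence. The smallest p-values were those of Nr4a1 and Dusp1. Nr4a1, an orphan nuclear receptor, differed by 0.53 ± 0.10 and Dusp1, the MAP kinase phosphatase of the series title, by 0.66 ± 0.13 (log2, SE), beside 0.44 for Junb and 0.39 for Fos. Red blood cell markers were higher in 4 of 4 tested members, with summed normalised reads of 1317 to 2531 in cocaine and 787 to 2717 in saline libraries, and myelinating oligodendrocyte markers were lower in 5 of 5, with sums of 43471 to 171458 and 29107 to 210130. Their part in the differences of the AP-1 genes was not tested.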

How the data were processed

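The authors deposited a table of 28842 genes by 12 libraries whose per-library values are a signal, each library's read counts over a size factor of its own: divided by what 1 read is worth, 100 percent came out whole, within 0.01 read. They are called normalised reads here. They are not divided by gene length, although the table is named FPKM. The deposited table also holds the authors' group means, log2 fold changes, p-values, adjusted p-values and gene lengths. Per the submitters' processing notes HISAT2 2.0.5 was used; which counter, strand setting and annotation followed is not given in the sources used here. The notes name hg38, but gene IDs are of mouse, and 28061 of 28842 have the start and end they have in GENCODE M21 (GRCm38). Libraries were built from 1 µg total RNA with a TruSeq kit, per the labels' protocols.

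Groups came from the treatment label. FPKM was computed from value, deposited length and column sum. limma 3.58.1 (R 4.3.3, variance trend) was fitted to log2(value + 1) for the 13016 genes averaging 1 FPKM or more, two-sided, with Benjamini-Hochberg adjustment at 0.05. Such differences understate changes of low genes. edgeR 4.0.16 and DESeq2 1.42.0 were run on the recovered reads as alternatives, and the fits were tested on simulated data. Correlations used 100000 resamples. The rule for named genes took the members, the 2 most alike genes of each and the 2 smallest p-values of each list. A gene that the rule named is not reported here. Members and lists were chosen with earlier results of these data known.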

Additional observations from a re-analysis of the deposited data

How the results depend on the processing

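Junb, Fos, Jun and Fosb kept their direction under every alternative that could be run, and no member passed an adjusted p of 0.05 under any (lowest adjusted p 0.890, Junb with the length score). With 1 library left out, differences (log2) ran from 0.35 to 0.52 for Junb, 0.30 to 0.46 for Fos, 0.16 to 0.22 for Jun, 0.09 to 0.19 for Fosb, -0.098 to 0.042 for Fosl2 and -0.12 to 0.060 for Jund. An unadjusted p under 0.05 was kept in 26 of 26 alternatives for Junb, 25 for Fos and 19 for Jun. Fosl2 turned positive within the day 5 tag (0.13) and with the length score (0.0081), and Jund with edgeR (0.0015) and within the day 0 tag (0.20). At a minimum mean FPKM of 5 Fosb and Fosl2 were not tested. Genes past the adjusted threshold numbered 3 with DESeq2 and 1 within the day 0 tag, against 0. With the replicate number as a block, Junb differed by 0.44 ± 0.11 and Fos by 0.39 ± 0.09 (log2, SE), and 0 genes passed. Without the block these errors were 0.15 and 0.14. The errors of Fosl2 and Jund were also smaller with the block, and those of Fosb and Jun slightly larger. Correlations of same-numbered libraries ran from -0.40 to 0.43, and 0 of 6 cocaine libraries correlated best with their own number. These values are too few to show whether the numbers pair libraries. 

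Without the 2 farthest libraries, r between members was -0.61 for Fos and Fosl2, 0.66 for Fos and Jund, 0.58 for Fosb and Jun, -0.77 for Fosl2 and Junb and -0.74 for Fosl2 and Jund, all past the threshold before. It changed sign for Fos and Fosb (0.013), Fos and Jun (0.31), Fosb and Junb (0.069) and Jun and Jund (-0.054). With the length score removed, a choice added after seeing the data, it was -0.10 for Fos and Fosl2, 0.18 for Fos and Jund, -0.21 for Fosl2 and Junb and -0.031 for Fosl2 and Jund. Of the pairs that passed before, Fos and Junb (0.71), Junb and Jund (0.68) and Fosb and Jun (0.72) still did, and Fosb and Junb (0.77) and Jun and Junb (0.68) passed here and not before (each with adjusted permutation p = 0.0470). Fos and Fosb had 0.53, Fos and Jun 0.22 and Fosb and Jund 0.65, none past the threshold. The median of the turnover list was -0.066 at a minimum mean FPKM of 5, and that of the target list 0.037 within the day 5 tag. The cause of these changes was not tested.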
